A study of Mus musculus with 14 samples.

Results

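The genes described here are 17 glutathione transferase genes of the mouse and 15 genes of the NRF2 antioxidant pathway. The glutathione transferases are Gsta1, Gsta2, Gsta3, Gsta4, Gstm1, Gstm2, Gstm3, Gstm4, Gstm6, Gstp1, Gstp2, Gstt1, Gstt2, Gstt3, Gstk1, Gsto1 and Gstz1, and the pathway genes are Nqo1, Gclc, Gclm, Gsr, Srxn1, Txnrd1, Slc7a11, G6pdx, Pgd, Taldo1, Tkt, Nfe2l2, Keap1, Abcc3 and Osgin1. They were picked by symbol as a gene family and a pathway, with earlier results of these data known. All 32 were listed in each deposited table, among 23404 and 20337 genes in the bulk tables and 21911 genes in the table of nuclei. RNA was measured in 14 samples of mouse liver, 12 of them bulk libraries in 4 groups of 3 and 2 of them libraries of single nuclei. By their labels, the bulk groups compared first were Ms4a7 KO mice and wild type mice, both kept on a NASH diet for 22 weeks, a regimen that induces nonalcoholic steatohepatitis. The bulk groups compared second were wild type mice on a chow diet given tail-vein injections of lipid droplets (LD) on 6 consecutive days, and wild type mice on the same diet given PBS in the same way. The nuclei came from Ms4a7 KO livers and wild type livers after the NASH diet for 22 weeks, with 3 livers pooled into 1 library per genotype, so that nuclei have no replicates. Ms4a7 encodes a membrane protein of the MS4A family found in macrophages. The age and sex of the mice, the KO allele and the source of the lipid droplets are not given in the sources used here.

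Glutathione transferases join the tripeptide glutathione to reactive, electrophilic compounds, which makes them water-soluble and ready for export, and the liver is the organ best known for this chemistry. Their classes are named after Greek letters: alpha (Gsta), mu (Gstm), pi (Gstp), theta (Gstt), kappa (Gstk1), omega (Gsto1) and zeta (Gstz1). NRF2, the transcription factor encoded by Nfe2l2, is held low by KEAP1, an adaptor that hands it to a ubiquitin ligase. When oxidants or electrophiles modify KEAP1, NRF2 protein accumulates, pairs with small MAF proteins and binds antioxidant response elements near genes for glutathione synthesis, glutathione transfer, NADPH supply and export. This control acts largely on NRF2 protein, which RNA libraries do not measure.

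Gstp1 and Gstp2 are close copies in tandem on chromosome 19, and how reads are shared between them bears on every pi-class value below. Their coding sequences have 633 bases each and differ at 12, an identity of 98.1%, and the first 90 bases are shown because they hold 6 of those differences, in capitals (GENCODE annotation of GRCm38, which is mm10).
Gstp1: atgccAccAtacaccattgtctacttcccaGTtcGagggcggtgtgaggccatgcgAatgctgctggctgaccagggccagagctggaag
Gstp2: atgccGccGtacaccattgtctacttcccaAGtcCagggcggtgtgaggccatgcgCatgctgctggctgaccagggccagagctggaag
Of the 50-base words of the main Gstp1 transcript, 62.3% also occur in Gstp2 transcripts. By the same measure 89.7% of the words of Gsta1 occur in transcripts of other genes (82.9% in Gm3776), 64.2% of those of Gsta2, 33.0% of those of Gstm1, 28.8% of those of Gstm3, 26% of those of Gstt3 (all of them in Gm20441) and 7.65% of those of G6pdx (all of them in G6pd2). Gstm4 and Nqo1 share none. How the authors assigned reads that fit more than 1 gene is not given in the sources used here, so the split between close copies is uncertain.

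Promoters of 27 of the 32 genes were found in the RefSeq table for GRCm38.p6, each reaching from 250 bases before to 50 bases after the start of the gene. The core of the antioxidant response element, TGACNNNGC read on either strand, lay in 7 of the 27 promoters (25.9%), against 14.0% of the promoters of 27025 genes. Those 7 were Gsta3, Nfe2l2, Gclm, Txnrd1 and G6pdx, with the match before the start, and Srxn1 and Pgd, with the match after it. A second form, TGACTCAGC or TGAGTCAGC on either strand, was chosen after the promoters had been read; it is a known binding form of NRF2 with small MAF proteins and contains the AP-1 motif TGANTCA. It lay in Gstp1, Gstp2, Srxn1 and Osgin1, which is 14.8% of the 27 promoters, against 0.929% of the promoters of all genes. The windows around these matches are shown for the pi-class pair, for Gsta3, the alpha-class gene with the highest level per length in each bulk group, for G6pdx, which is among the few genes called below, and for Nfe2l2 itself. Capitals mark the match, read 5′ to 3′ on the strand of the gene.
Gstp1 (chr19:4037952-4038012, minus strand, 74 bases before the start): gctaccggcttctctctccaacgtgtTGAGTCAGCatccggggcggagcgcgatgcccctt
Gstp2 (chr19:4042276-4042336, minus strand, 89 bases before the start): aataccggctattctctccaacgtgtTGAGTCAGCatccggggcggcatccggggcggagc
Gsta3 (chr1:21240438-21240498, plus strand, 121 bases before the start): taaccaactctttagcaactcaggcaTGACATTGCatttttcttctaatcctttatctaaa
G6pdx (chrX:74428903-74428963, minus strand, 57 bases before the start): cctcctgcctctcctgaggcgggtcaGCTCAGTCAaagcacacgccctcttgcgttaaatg
Nfe2l2 (chr2:75704869-75704913, minus strand, 240 bases before the start): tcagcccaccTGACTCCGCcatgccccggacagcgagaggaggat
The Gstp1 and Gstp2 windows are identical at 46 of 61 positions when laid base on base, with the match at the same place in each. A match is a stretch of letters and not a measured binding site.

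The bulk values are counts of reads per gene divided by 1 size factor per library, called normalized counts below. A library held 21945394 to 23126164 recovered reads in the KO and wild type table, and 39318264 to 41346464 in the LD and PBS table. Ms4a7 itself went against its labels. It had 102, 117 and 136 normalized counts in the libraries labelled KO, against 9.70, 25.8 and 23.3 in those labelled wild type, a log2 fold change of 2.63 ± 0.37 (SE, limma adjusted p = 0.0149). In the other table it had 10.5, 7.60 and 9.32 normalized counts in the libraries labelled LD, against 62.2, 84.7 and 163 in those labelled PBS, a log2 fold change of -3.26 ± 0.39 (limma adjusted p = 0.00428). The submitters named the first table for lipid droplets and the second for Ms4a7, which goes against the labels of their columns. Groups are called by their labels throughout, and a direction below is one between labels, which may not be those of the animals. Nothing in the labels says that replicates came from separate animals, so p-values measure the spread between these libraries, which may be technical.

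Per kilobase of exon, the leading member in the libraries labelled KO was Gstp1, at 55394 ± 11170 normalized counts per kilobase (SD, n = 3), followed by Gstm1 at 46760 ± 8486, Gstp2 at 26668 ± 6260 and Gsta3 at 4914 ± 270.3. The same 4 genes led in the libraries labelled wild type, with Gstm1 at 43805 ± 4818, Gstp1 at 30840 ± 6710, Gstp2 at 14515 ± 3052 and Gsta3 at 6526 ± 1039 per kilobase. Gstm1 is a major mu-class enzyme of mouse liver and Gsta3 its alpha-class counterpart.

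Gstm1 led in the libraries labelled LD, at 87277 ± 14100 normalized counts per kilobase, ahead of Gstp1 at 23780 ± 2660 and Gsta3 at 9656 ± 599. In those labelled PBS, Gstm1 had 110715 ± 5145 per kilobase, Gstm3 14989 ± 1334, Gstp1 12323 ± 133 and Gsta3 8087 ± 1156. Slc7a11, the cystine importer subunit, was the lowest member in all 4 groups. The spread in level is wide within clusters of neighbouring genes: 5 mu-class members lie between positions 107938847 and 108044894 on chromosome 3, and in the libraries labelled KO they ran from 780 per kilobase (Gstm4) to 46760 (Gstm1).

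The share of pi-class reads given to each copy separated the tables and not the groups. Gstp1 was 2.72 to 3.04 times Gstp2 in the libraries labelled KO and 2.86 to 3.01 times in those labelled wild type. It was 373 to 534 times Gstp2 in the libraries labelled LD and 381 to 647 times in those labelled PBS. The tables were counted and scaled separately, and whether counting of shared reads moved with this was not tested.

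**Figure D1:**
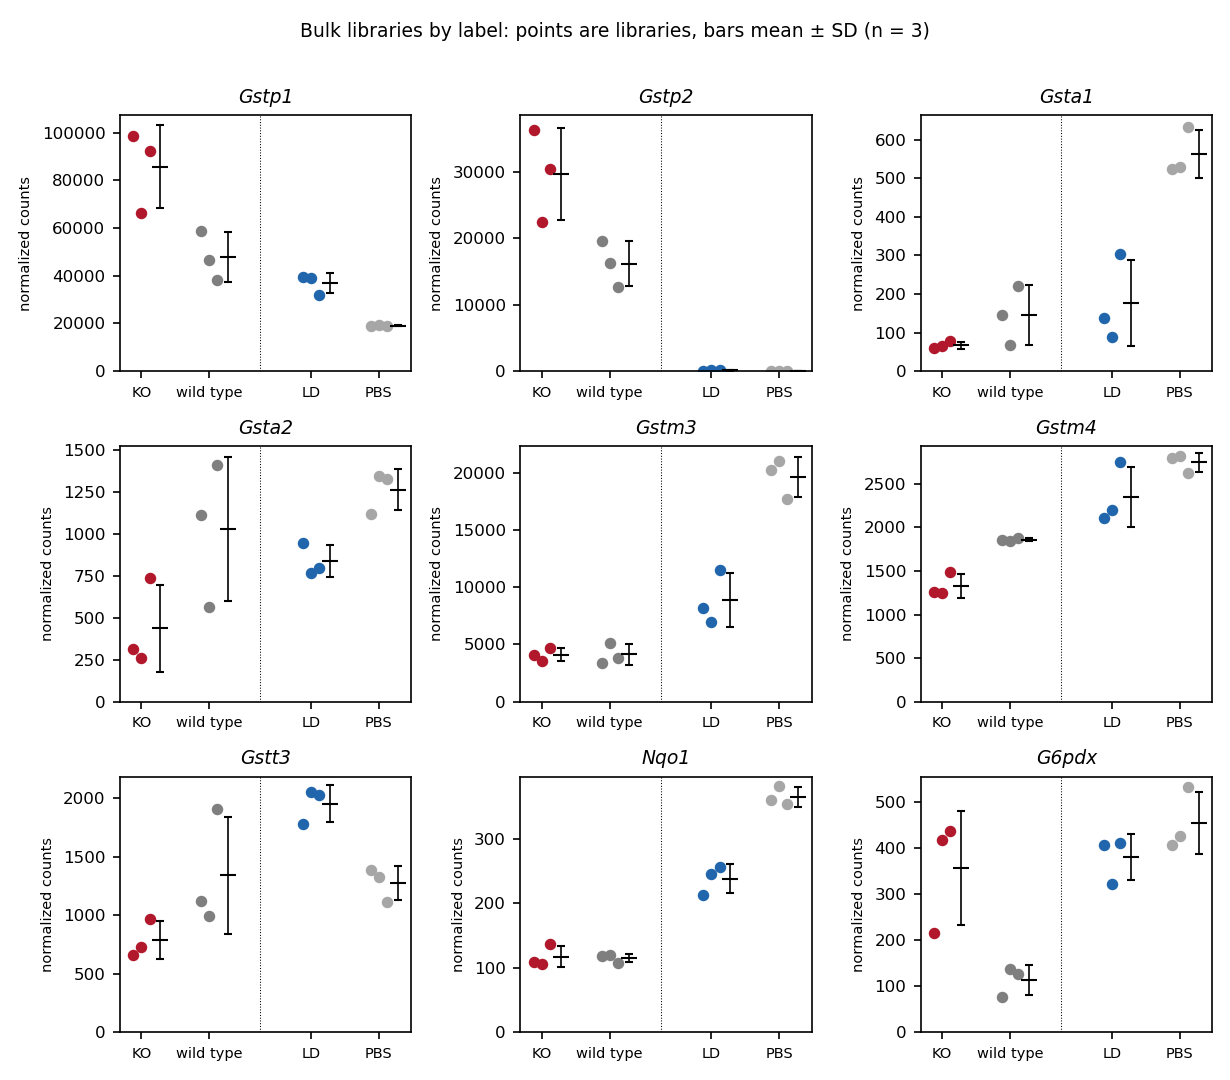
Normalized counts (vertical axes, starting at 0) of the 8 members called in either comparison and of Gstp2, by label; each point is 1 library, and the bar beside it is the mean ± SD (n = 3). The libraries labelled LD have 32056 to 39238 normalized counts of Gstp1 and lie above all those labelled PBS, and the libraries labelled KO have 215 to 438 of G6pdx and lie above all those labelled wild type.

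By its labels, the first comparison is about the effect of Ms4a7 loss in livers of mice on the NASH diet. G6pdx, the entry enzyme of the pentose phosphate pathway that supplies NADPH, rose in the libraries labelled KO, and Gstm4, a mu-class transferase, fell. The remaining 29 of 31 members tested did not pass, and 1 member, Slc7a11, was too low to test. Over all genes, 3.02% were called higher and 0.701% lower (15827 tested, limma, Benjamini-Hochberg adjusted p under 0.05), so 1 of 31 higher is close to that background. The median log2 fold change was -0.21 over the 17 transferases and -0.02 over the 14 pathway genes tested, beside -0.02 over all genes.

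G6pdx had 215, 417 and 438 normalized counts in the libraries labelled KO, against 77.6, 138 and 127 in those labelled wild type. The groups did not overlap, and KO replicate 1 and wild type replicate 1 were each the lowest of their group. The log2 fold change was 1.61 ± 0.32 (SE, limma adjusted p = 0.0409), on the scale of log2(normalized count + 1), as are all fold changes below. The call held when KO replicate 1 was left out (adjusted p = 0.0220, limma) and was lost when any other library was left out, with an adjusted p of at most 0.128. Macrophage markers moved with it: 8 of 12 rose, and their summed level ran from 32338 to 57197 normalized counts in the libraries labelled KO, against 4574 to 8966 in those labelled wild type, with no marker at 0. KO replicate 1 and wild type replicate 1 were also the lowest of their groups in that sum. The same was so for the neutrophil, stellate cell, endothelial and B or plasma cell marker sums, and not for those of the other marker lists. Of 8 neutrophil markers 3 passed the filter on low values and 1 rose, and their sum ran from 283 to 684 in the libraries labelled KO, against 77.6 to 114 in those labelled wild type, where Ly6g was at 0. The part of macrophages, neutrophils or other cell types in the change of G6pdx was not tested. In bulk tissue, fewer cells of a type and less RNA per cell cannot be told apart.

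The other genes of that pathway among the members did not pass. Pgd, which makes NADPH at a later step, had a log2 fold change of 0.30 ± 0.18, Taldo1 (transaldolase) 0.04 ± 0.08 and Tkt (transketolase) -0.09 ± 0.09. Slc7a11, which imports the cystine needed for glutathione, had 4, 10 and 7 reads in the libraries labelled KO and 0 in all 3 labelled wild type. With a floor of 3 reads put in for the group labelled wild type, the ratio of KO to wild type had a lower limit of 6.83. Counting error of the reads in the libraries labelled KO is not part of that limit. The level of Slc7a11 stayed under 12 normalized counts, and the neutrophil and macrophage sums given above moved with it.

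Gstm4 had 1258, 1244 and 1490 normalized counts in the libraries labelled KO, against 1851, 1845 and 1883 in those labelled wild type. Every library labelled KO lay below every library labelled wild type, and the wild type libraries lay closest together. The log2 fold change was -0.49 ± 0.09 (limma adjusted p = 0.0374), and the call held in 1 of the 6 fits that left out 1 library, without KO replicate 3. The sum of 8 pericentral hepatocyte markers was also lower, at 258239 to 324741 normalized counts in the libraries labelled KO. It was 345289 to 366800 in those labelled wild type, with no marker at 0. Single markers did not all follow the sum: 5 of 8 had a log2 fold change above 0 and 3 below. Their median was 0.04, and 0 of 8 passed in limma. Of 8 periportal markers 2 rose, with overlapping sums of 189244 to 266221 in the libraries labelled KO, against 209014 to 222108 in those labelled wild type. Their part in the fall of Gstm4 and in the lower values of other transferases below was not tested. The mu-class neighbours of Gstm4 did not pass: Gstm1 was at 0.08 ± 0.18, Gstm2 at -0.06 ± 0.21, Gstm3 at 0.01 ± 0.17 and Gstm6 at -0.21 ± 0.09.

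The pi-class pair was higher by a similar size and did not pass in limma. Gstp1 averaged 85750 ± 17291 normalized counts in the libraries labelled KO and 47740 ± 10388 in those labelled wild type (SD, n = 3 each), with no overlap and a log2 fold change of 0.85 ± 0.22 (limma adjusted p = 0.0857). Gstp2 averaged 29682 ± 6968 in the libraries labelled KO and 16155 ± 3397 in those labelled wild type, also with no overlap, with a log2 fold change of 0.87 ± 0.22 (limma adjusted p = 0.0742). DESeq2 on the recovered reads called both (adjusted p = 0.000536 for Gstp1 and 0.000545 for Gstp2), beside 5.81% of all genes called higher and 2.03% lower by that tool. Of the alpha class, Gsta1 and Gsta2, transferases known for handling lipid peroxidation products and drugs, had log2 fold changes of -0.96 ± 0.40 and -1.28 ± 0.44 with overlapping groups. Gsta3 was at -0.40 ± 0.14 without overlap, and none of these passed (limma adjusted p from 0.178 to 0.253). Close copies were also summed as 1 feature, an alternative chosen after the data were seen, and neither sum passed. Gstp1 and Gstp2 summed had a log2 fold change of 0.85 (limma adjusted p = 0.0915), and Gsta1 and Gsta2 summed had -1.23 (limma adjusted p = 0.176).

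The regulators Nfe2l2 and Keap1 did not pass. Nfe2l2 had 1682, 1601 and 1583 normalized counts in the libraries labelled KO, against 1335, 1193 and 1398 in those labelled wild type, without overlap. The log2 fold change was 0.31 ± 0.09 (95% interval 0.10 to 0.52) and did not pass (limma adjusted p = 0.112). Keap1 had 896, 866 and 905 normalized counts in the libraries labelled KO, against 870, 834 and 932 in those labelled wild type. These groups overlapped, at a log2 fold change of 0.02 ± 0.08 (95% interval -0.18 to 0.22).

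Nqo1, a quinone reductase often used as a readout of NRF2, had 109, 106 and 137 normalized counts in the libraries labelled KO, against 119, 120 and 108 in those labelled wild type. The groups overlapped, and the log2 fold change was 0.02 ± 0.16 (95% interval -0.36 to 0.39). The genes of glutathione synthesis and recycling had log2 fold changes of -0.20 ± 0.19 (Gclc, the catalytic subunit of the rate-limiting ligase), -0.06 ± 0.10 (Gclm, its modifier subunit) and -0.23 ± 0.10 (Gsr, glutathione reductase). Srxn1 (sulfiredoxin, which repairs peroxiredoxins) was at -0.38 ± 0.17, Txnrd1 (thioredoxin reductase) at 0.09 ± 0.08, Abcc3 (an exporter of conjugates) at -0.52 ± 0.22 and Osgin1 (oxidative stress induced growth inhibitor) at -0.08 ± 0.24, and none passed.

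Without overlap of the groups, 4 members were higher (Gstp1, Gstp2, G6pdx and Nfe2l2) and 7 lower (Gsta3, Gstm4, Gstm6, Gstt3, Gstz1, Gsr and Abcc3) in the libraries labelled KO. The shares over all genes tested were 12.4% higher and 11.7% lower, so 4 of 31 is near the background and 7 of 31 lies above it. The authors' deposited table calls more: 5 members higher (G6pdx, Gstp1, Gstp2, Nfe2l2 and Slc7a11), beside 9.37% of its 17449 genes, and 7 lower (Abcc3, Gsta1, Gsta2, Gsta3, Gstm4, Gstt3 and Gstz1), beside 6.01% of them. Which samples entered that fit is not given in the sources used here.

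**Figure D2:**
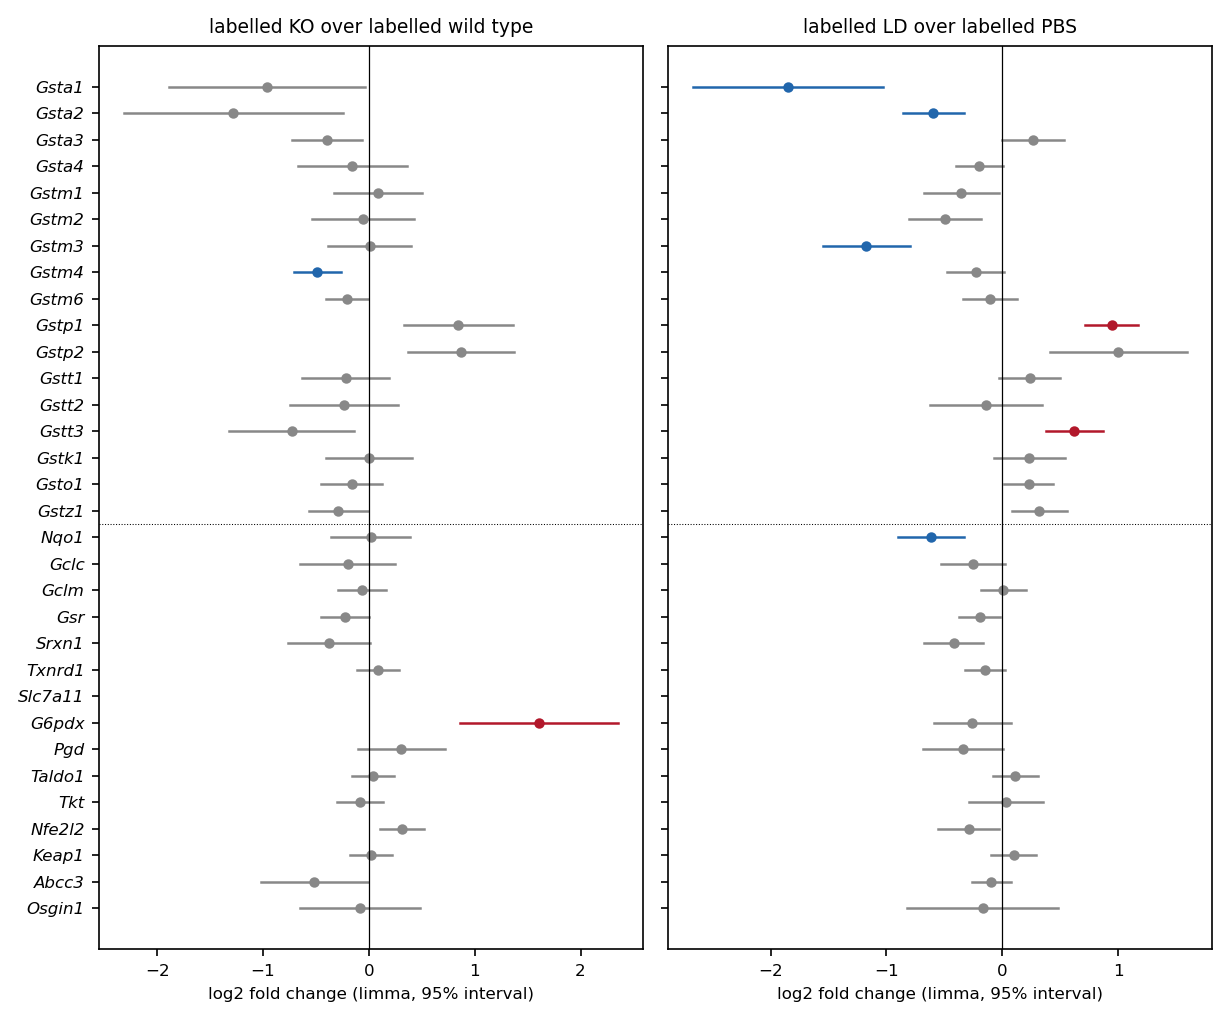
Log2 fold changes (horizontal axes, limma, with 95% intervals) of the members in the libraries labelled KO over those labelled wild type (left) and in the libraries labelled LD over those labelled PBS (right); red marks members called higher, blue members called lower, grey members that did not pass, and Slc7a11 was too low to test. The dotted line divides transferases (above) from NRF2 pathway genes (below); the called values run from -0.49 (Gstm4) to 1.61 (G6pdx) on the left and from -1.85 (Gsta1) to 0.94 (Gstp1) on the right.

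The second comparison asks which liver transcripts differ after injection of lipid droplets into chow-fed mice, by the labels. Glutathione transferases moved in both directions in the libraries labelled LD: Gstp1 and Gstt3 rose, and Gsta1, Gsta2 and Gstm3 fell. Of the pathway genes, Nqo1 fell and the other 13 tested did not pass. In all, 2 of 31 members tested rose and 4 fell, beside 1.95% of genes called higher and 2.21% called lower (14900 tested, limma). The median log2 fold change was -0.11 over the 17 transferases and -0.18 over the 14 pathway genes tested, beside 0.00 over all genes.

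Gstp1 had 39238, 39139 and 32056 normalized counts in the libraries labelled LD, against 19088, 19274 and 18864 in those labelled PBS. LD replicate 3 was lowest of its group and still far above all libraries labelled PBS. The log2 fold change was 0.94 ± 0.10 (SE, limma adjusted p = 0.00296), and the call held in each of the 6 fits that left out 1 library. Gstp2 had 73.5, 83.5 and 85.9 normalized counts in the libraries labelled LD, against 50.1, 43.3 and 29.1 in those labelled PBS, without overlap. Its log2 fold change of 1.0 ± 0.26 did not pass (limma adjusted p = 0.0718). Summed as 1 feature, an alternative chosen after the data were seen, the pair had a log2 fold change of 0.94 (limma adjusted p = 0.00293). Gstp1 was at least 373 times Gstp2 in these libraries, so the sum is nearly Gstp1 alone and is no check on the split of reads.

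Gstt3, a theta-class transferase, had 1777, 2056 and 2029 normalized counts in the libraries labelled LD, against 1386, 1325 and 1109 in those labelled PBS. All libraries labelled LD were above all labelled PBS, at a log2 fold change of 0.62 ± 0.11 (limma adjusted p = 0.0174). Its neighbours on chromosome 10 did not pass, with Gstt1 at 0.24 ± 0.12 and Gstt2 at -0.14 ± 0.22. The kappa, omega and zeta members also had values above 0 without passing: Gstk1 (a mitochondrial and peroxisomal enzyme) was at 0.23 ± 0.14, Gsto1 at 0.23 ± 0.09, and Gstz1, which acts in tyrosine breakdown, at 0.32 ± 0.10 (limma adjusted p = 0.125).

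Gstm3 had 8218, 6931 and 11465 normalized counts in the libraries labelled LD, against 20229, 21037 and 17685 in those labelled PBS. The groups lay well apart, with LD replicate 3 nearest to the PBS libraries. The log2 fold change was -1.18 ± 0.17 (limma adjusted p = 0.00751), and the call was lost when PBS replicate 2 was left out (adjusted p = 0.0548). Of the other mu-class members, Gstm1 was at -0.35 ± 0.14 and Gstm2 at -0.50 ± 0.14 without overlap, and Gstm4 at -0.23 ± 0.11 and Gstm6 at -0.11 ± 0.10 with overlap, and none passed.

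Gsta1 had 137, 89.0 and 303 normalized counts in the libraries labelled LD, against 525, 531 and 635 in those labelled PBS. LD replicate 3 stood above the rest of its group, and no library labelled LD reached those labelled PBS. The log2 fold change was -1.85 ± 0.36 (limma adjusted p = 0.0263), and the call held in 1 of 6 fits that left out 1 library, without LD replicate 3. Gsta2 had 949.9, 770.4 and 797 normalized counts in the libraries labelled LD, against 1123, 1345 and 1332 in those labelled PBS, without overlap. Its log2 fold change was -0.60 ± 0.12 (limma adjusted p = 0.0258). Summed, an alternative chosen after the data were seen, Gsta1 and Gsta2 had a log2 fold change of -0.85 (limma adjusted p = 0.00717), less than the size of that of Gsta1 alone. Gsta3, with an element core in its promoter, was at 0.26 ± 0.12 and Gsta4 at -0.20 ± 0.09, and neither passed.

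Nqo1 had 213, 246 and 256 normalized counts in the libraries labelled LD, against 360.0, 382 and 353 in those labelled PBS. Every library labelled LD lay below every library labelled PBS, at a log2 fold change of -0.62 ± 0.13 (limma adjusted p = 0.0309). The call held in 1 of 6 fits that left out 1 library, without LD replicate 3, and adjusted p was at most 0.136 in the others. Cholangiocyte markers moved in the same direction: 4 of 9 tested fell, and the sum of the list ran from 4194 to 7301 normalized counts in the libraries labelled LD, against 10157 to 14094 in those labelled PBS. Of 10 stellate cell markers 6 fell, with sums of 24449 to 26193 in the libraries labelled LD, against 35187 to 41934 in those labelled PBS. Hepatocyte markers of both zones moved the other way. Of 8 pericentral markers 2 rose, with sums of 497541 to 563128 in the libraries labelled LD, against 314840 to 444028 in those labelled PBS. Of 8 periportal markers 1 rose, with sums of 215856 to 232409 in the libraries labelled LD, against 171097 to 189457 in those labelled PBS. Of 10 general hepatocyte markers 9 had a log2 fold change above 0, and 0 passed in limma. The part of these cell types in the changes of the transferases and of Nqo1 was not tested.

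The regulators did not pass here either. Nfe2l2 had 5715, 5726 and 5739 normalized counts in the libraries labelled LD, against 7937, 7478 and 5771 in those labelled PBS. The groups did not overlap, although PBS replicate 3 lay next to the LD libraries, and the log2 fold change was -0.29 ± 0.12 (limma adjusted p = 0.212). Keap1 had 2112, 2318 and 2454 normalized counts in the libraries labelled LD, against 2219, 2160 and 2047 in those labelled PBS, with overlap, at a log2 fold change of 0.10 ± 0.09 (95% interval -0.10 to 0.29).

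Genes of glutathione supply and of the NADPH pathway had values on either side of 0 and did not pass. Gclc was at -0.25 ± 0.12, Gclm at 0.01 ± 0.09 and Gsr at -0.20 ± 0.08, and G6pdx at -0.26 ± 0.15, Pgd at -0.34 ± 0.15, Taldo1 at 0.11 ± 0.09 and Tkt at 0.03 ± 0.14. Srxn1, whose promoter holds both motifs, was at -0.42 ± 0.11 without overlap (limma adjusted p = 0.0763). Txnrd1 was at -0.15 ± 0.08, Abcc3 at -0.10 ± 0.07 and Osgin1 at -0.17 ± 0.29. Slc7a11 had 2, 1 and 5 reads in the libraries labelled LD and 5, 9 and 5 in those labelled PBS, too few to test.

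Without overlap, 5 members were higher (Gstp1, Gstp2, Gstt3, Gsto1 and Gstz1) and 11 lower in the libraries labelled LD, beside 12.6% and 12.8% of all genes tested. The 5 higher were all transferases, and the 11 lower were 5 transferases (Gsta1, Gsta2, Gstm1, Gstm2 and Gstm3) and 6 pathway genes (Nqo1, Gsr, Srxn1, Txnrd1, Nfe2l2 and Abcc3). The authors' deposited table calls 3 members higher (Gstp1, Gstp2 and Gstt3), beside 3.46% of its 15994 genes, and 6 lower (Gsta1, Gsta2, Gstm2, Gstm3, Nqo1 and Srxn1), beside 4% of them.

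Gstp1 was higher in both bulk comparisons by similar sizes, 0.85 ± 0.22 in the libraries labelled KO over wild type and 0.94 ± 0.10 in those labelled LD over PBS, and limma called it in the second. Gstt3 was at -0.73 ± 0.25 in the first and 0.62 ± 0.11 in the second, and Gstm3 at 0.01 ± 0.17 and -1.18 ± 0.17. The difference between the comparisons was not tested, since diets, handling and tables differ.

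Other genes of the pathway, taken from 5 lists of 70 genes in all, were read from the same fits. In the libraries labelled KO, limma called 0 of 62 tested, edgeR 2 higher and DESeq2 3 higher and 2 lower, and limma gave 5 higher and 9 lower at an unadjusted p under 0.05. Over all genes edgeR called 3.44% higher and 0.657% lower there, and 10.7% were higher and 7.99% lower at an unadjusted p under 0.05. Among 61 tested in the second comparison, 2 rose and 2 fell in the libraries labelled LD (limma), and edgeR called 3 higher and 2 lower and DESeq2 4 higher and 4 lower. The shares of all genes higher and lower were 1.81% and 2.24% by edgeR, 3.72% and 4.47% by DESeq2, and 9.28% and 10.4% at an unadjusted p under 0.05 (limma). Glrx, a glutaredoxin that removes glutathione from proteins, rose (log2 fold change 0.91 ± 0.11, limma adjusted p = 0.00390), with 1107, 1305 and 1307 normalized counts in the libraries labelled LD, against 668, 607 and 701 in those labelled PBS. Hagh, which frees glutathione in the glyoxalase pathway, rose by 0.51 ± 0.10 on the log2 scale. Abcc4, an exporter related to Abcc3, fell by 1.82 (SE 0.31), with 53.5, 39.1 and 98.3 normalized counts in the libraries labelled LD, against 209, 187 and 240 in those labelled PBS, and Htatip2 was at -0.47 ± 0.10 and fell as well. None of the 9 tested regulators of NRF2 was called by limma, edgeR or DESeq2 in either comparison (0 of 9 in each). At an unadjusted p under 0.05, limma gave 1 lower in the libraries labelled KO and 1 higher in those labelled LD.

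The nuclei table holds the mean number of UMIs per 10000 in each of 12 numbered groups of nuclei and each genotype, with no counts, barcodes or number of nuclei, so depth is unknown and no test was made. Groups are named here from marker lists as pericentral (group 0) and periportal (1) hepatocyte-like, macrophage-like (3), neutrophil-like (5), dendritic cell-like (10), B or plasma cell-like (9), T or NK cell-like (6), stellate-like (2), endothelial-like (4), mesothelial-like (11) and cholangiocyte-like (7), and group 8 is unnamed. The names are rebuilt from the table and may differ from the study's own, and how doublets were treated is not given in the sources used here. Group 5, although led by S100a9, S100a8 and Cxcr2, also held Alb at 39.9 in nuclei labelled KO and 14.5 in those labelled wild type, more than most groups, and 17 members were listed at 0 there in nuclei labelled KO and 11 in those labelled wild type.

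Members fell into a few patterns across groups. Of 32 members, 17 had the same top group in both genotypes. For 7 that was the pericentral hepatocyte-like group (Gsta2, Gsta3, Gstm3, Gstm6, Gstt2, Gstz1 and Gclm), for 6 the neutrophil-like group (Gstm1, Gsr, Slc7a11, G6pdx, Pgd and Taldo1), for 2 the macrophage-like group (Txnrd1 and Abcc3) and for 2 the mesothelial-like group (Gstm4 and Gstt3). In mesothelial-like nuclei Gstm4 averaged 0.197 and Gstt3 0.137 UMIs per 10000 over both genotypes. Both values were low, under the median level of the genes listed above 0 in that group. Slc7a11 was the most confined, at 9.32 UMIs per 10000 in neutrophil-like nuclei labelled KO and 7.71 in those labelled wild type, and at most 0.33 in any other group. Gsr was at 15.7 there in nuclei labelled KO and 14.0 in those labelled wild type, and its next level was 2.69 and 2.34, in macrophage-like nuclei. G6pdx was at 0.647 in neutrophil-like nuclei labelled KO and 1.29 in those labelled wild type, 0.481 and 0.447 in macrophage-like nuclei, and under 0.02 in both hepatocyte-like groups.

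**Figure D3:**
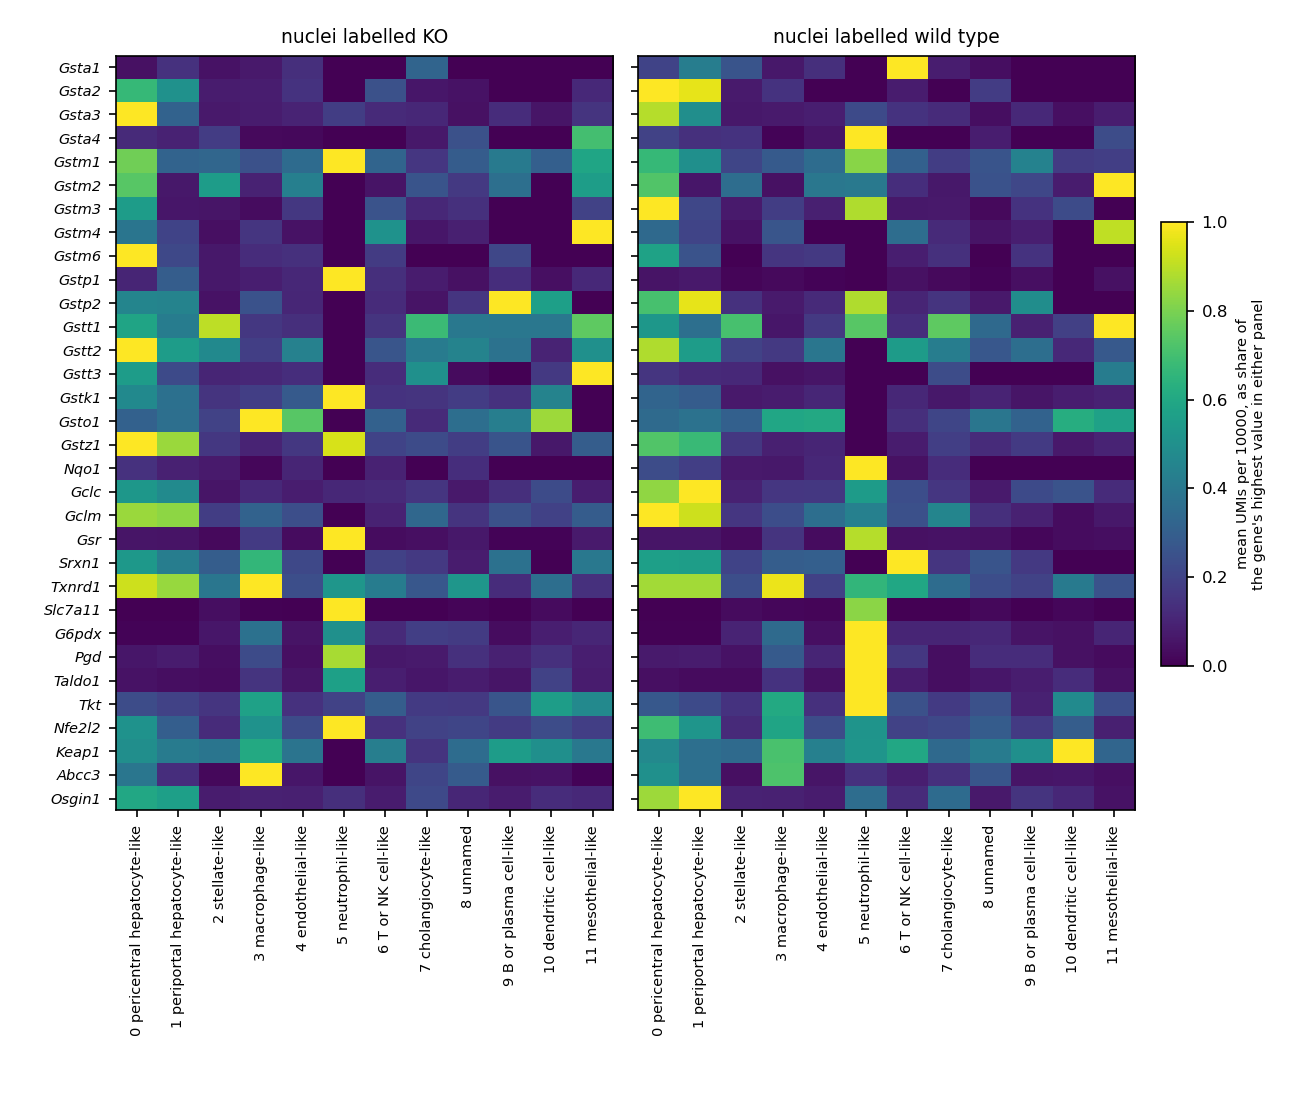
Level of each member (rows) in each group of nuclei (columns) for nuclei labelled KO (left) and wild type (right), as a share of the highest value of that gene in either panel, from mean UMIs per 10000. The columns of the hepatocyte-like groups 0 and 1 and of the neutrophil-like group 5 hold most of the bright cells, such as Slc7a11 at 9.32 (KO) and 7.71 (wild type) in group 5.

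Levels differed between the hepatocyte-like groups. Gsta3 was at 9.45 UMIs per 10000 in pericentral hepatocyte-like nuclei labelled KO and 2.97 in periportal ones, and at 8.40 and 4.65 in nuclei labelled wild type. Gstm2 was at 0.254 in pericentral nuclei labelled KO and 0.250 in those labelled wild type, and Gstm3 at 0.168 and 0.304, while the mean of both genotypes lay under the level floor (the median level of the genes listed above 0 in a group) in the periportal group for both genes. Gstp1 went the other way, with pericentral over periportal ratios of 0.348 in nuclei labelled KO and 0.780 in those labelled wild type. Among members above the median level of both groups, 7 of 10 transferases and 7 of 12 pathway genes were higher in the pericentral group in both genotypes, beside 35.6% of 9980 genes. Nfe2l2 was 1.70 and 1.33 times and Keap1 1.18 and 1.29 times higher there. Any ratio above 1 counted as higher, and some lay near 1. Srxn1 had ratios of 1.26 in nuclei labelled KO and 1.01 in those labelled wild type, and Gclm 1.03 and 1.08, while Abcc3 had 2.99 and 1.37.

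Between genotypes, 24 of 204 pairs of a member and a group above the level floor differed by at least 2-fold, 13 higher and 11 lower in nuclei labelled KO. Over all pairs of a gene and a group 6.33% were higher and 4.45% lower, so the members' counts lie near the background. That share ran from 3.15% to 20.1% higher and from 1.6% to 16.8% lower across groups, and was highest in group 5. Gstp1 was higher in nuclei labelled KO in 12 of 12 groups, 3 of them above the level floor. One of these was group 5, where Gstp1 was at 1.77 in nuclei labelled KO and 0 in those labelled wild type. It passed the floor of 0.402 there only through the nuclei labelled KO. Among 7839 genes above 0 in at least 1 genotype of every group, 2.74% were higher in all 12. Gstp1 was at 0.522 UMIs per 10000 in periportal hepatocyte-like nuclei labelled KO against 0.124 in those labelled wild type, and at 0.181 in pericentral ones labelled KO against 0.0966 in those labelled wild type. Gstp2 went the other way there, at 0.0878 in periportal hepatocyte-like nuclei labelled KO against 0.188 in those labelled wild type. Alb, an abundant hepatocyte RNA, was also higher in nuclei labelled KO in all 12 groups, from 8.22 to 46.7 against 3.13 to 22.5 in those labelled wild type, and its part in the result was not tested.

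Gclc was lower in nuclei labelled KO in 12 of 12 groups, all above the level floor. Of 3004 genes above the floor in every group, 2.53% were lower in all 12. The members in that set were Gsta3, Gstm1, Gclc, Gsr, Txnrd1, Taldo1, Tkt and Nfe2l2, and only Gclc was lower in all 12. Gclc was at 5.73 UMIs per 10000 in periportal hepatocyte-like nuclei labelled KO against 12 in those labelled wild type, and at 1.38 in macrophage-like ones labelled KO against 1.88 in those labelled wild type. Abcc3 was at 0.715 in periportal hepatocyte-like nuclei labelled KO against 2.0 in those labelled wild type, and at 5.47 in macrophage-like ones labelled KO against 3.95 in those labelled wild type. Gstz1 and Gstk1 were each higher in nuclei labelled KO in 11 of 12 groups, and Gstk1 was above the floor in 2. The share over all genes for that count was not computed. Gstz1 was at 2.89 in pericentral hepatocyte-like nuclei labelled KO against 2.10 in those labelled wild type. In group 5 Gstz1 was at 2.71 in nuclei labelled KO and 0 in those labelled wild type. Nfe2l2 was at 4.05 in pericentral hepatocyte-like nuclei labelled KO against 5.47 in those labelled wild type, and Keap1 at 0.350 in the KO ones against 0.334 in the wild type ones. All 12 groups come from the same 2 libraries, so groups are not replicates of each other. With 1 library per genotype, none of these differences has a replicate check.

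**Figure D4:**
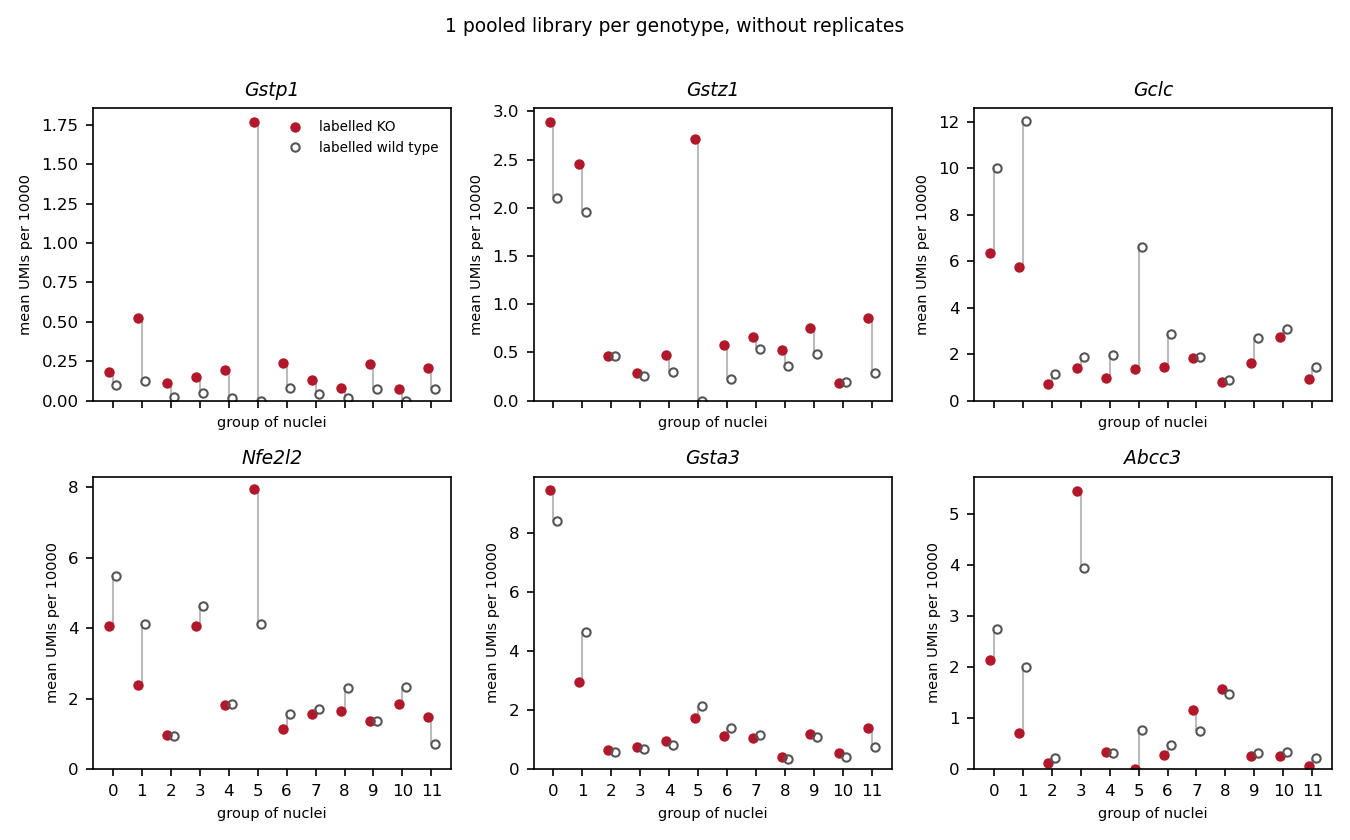
Mean UMIs per 10000 (vertical axes) of 6 members in the 12 numbered groups of nuclei (horizontal axes), with filled points for nuclei labelled KO and open points for nuclei labelled wild type, 1 pooled library each. The filled points of Gstp1 lie above the open ones in all 12 groups and those of Gclc below them in all 12, for example 5.73 (KO) against 12 (wild type) in group 1.

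Set beside the bulk tables, the hepatocyte-like nuclei give the direction of the nuclei labelled KO over wild type for each member. Of the members called in the libraries labelled LD over PBS, 5 lay above the level floor in group 0 and 2 in group 1, and all of these had the same direction there. The 5 were Gsta2, Gstm3, Gstp1, Gstt3 and Nqo1, and the 2 were Gsta2 and Gstp1 again. In group 0, Gstt3 passed the floor of 0.0442 only through the nuclei labelled KO (0.106, against 0.0296 in those labelled wild type). Nqo1 passed it only through the nuclei labelled wild type (0.0555, against 0.0341 in those labelled KO). Of the members called in the libraries labelled KO over wild type, Gstm4 alone lay above the floor, in group 0, where its direction was the opposite one. Over all genes the share of equal direction was 63.6% in group 0 and 63.3% in group 1 for the libraries labelled LD over PBS, and 47.1% and 47.8% for those labelled KO over wild type. Over all members above the floor it was 18 of 28 and 16 of 22 for the libraries labelled LD over PBS, and 15 of 28 and 16 of 22 for those labelled KO over wild type. Ms4a7 in macrophage-like nuclei was at 0.622 UMIs per 10000 in those labelled KO and 1.25 in those labelled wild type. No test of these shares was made, and genes are not independent of each other.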

How the data were processed

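The tables cover 12 bulk RNA libraries of mouse liver and 2 pooled libraries of nuclei. Per the submitters' processing notes, build mm10 was used, with Cell Ranger and Seurat 4.0.1 on the nuclei and STAR, FastQC and DESeq2 on the bulk libraries; the read counter and annotation are not given in the sources used here. The authors' deposited bulk signal is a read count per gene over a size factor: dividing by the value of 1 read gave whole numbers (tolerance 0.01) for 100% of values, so whole reads could be recovered. The log2 fold changes, p-values and adjusted p-values deposited by the authors are their own. The authors' deposited signal of nuclei is a mean of UMIs scaled to 10000 per nucleus.

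A gene entered the fits if 3 or more of 6 libraries had at least 10 normalized counts. Each table was fitted alone with limma 3.58.1 (trend, two-sided) in R 4.3.3 on log2 of the value plus 1, with Benjamini-Hochberg adjustment over all genes tested and a threshold of 0.05. Fits without 1 library used the same genes. The alternatives edgeR 4.0.16 and DESeq2 1.42.0 ran on recovered reads, and fits were tested on simulated data with 200 changed genes. Chi-square per degree of freedom between replicates was 16.9 or more, so no library is a copy of another. Reads carry no molecular identifiers, so the floor of 3 reads covers counting error only.

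For nuclei, a gene counted in a group if its mean over both genotypes was over the median (the level floor), and the pseudocount of ratios was percentile 5 of the values above 0. Gene names that occur more than once (4 entries) were dropped. A group was named if at least 3 markers of a list were highest there and 1 or more was among its 10 leading genes by fold. Positions and transcripts come from GENCODE and promoters from RefSeq. The members and lists were chosen with earlier results of these data known. Library values are printed for members called in a comparison and for Nfe2l2, Keap1 and Nqo1, and of other pathway genes only called ones are named, up to 4 a list. Outside this rule, Gstp2, Slc7a11, Hmox1 and Gstp3 were chosen after their values were seen.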

Additional observations from a re-analysis of the deposited data

How the results depend on the processing

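Counts moved more than values. In the libraries labelled KO against wild type, DESeq2 on recovered reads called 1241 genes against 589 in limma, with 3 members higher and 2 lower, and without a filter on low values 2 members were higher, since Slc7a11 then passed. In the libraries labelled LD against PBS, DESeq2 called 1221 genes against 620. Leaving out 1 library gave 124 to 530 genes, 0 to 1 members higher and 0 to 1 lower in the first comparison, and 134 to 1226 genes, 1 to 2 members higher and 0 to 8 lower in the second. The count of genes fell more than 1.5 times without any of the libraries labelled wild type or KO replicate 2 (124) or 3 in the first, and in the second without any library but LD replicate 3, where it was highest, as was that of lower members; 0 members were lower without PBS replicate 2. Of the 8 called values, Gstp1 (labelled LD) passed in every fit run. G6pdx and Gstm4 in the libraries labelled KO, and Gsta1 and Nqo1 in those labelled LD, each passed in 1 of 6 such fits, Gsta2 and Gstt3 in 3 of 6 and Gstm3 in 5 of 6. Signs changed over these fits for members that did not pass: in the libraries labelled KO, Keap1 ran from -0.0187 (without wild type replicate 2) to 0.0610, and Nqo1 from -0.0969 (without KO replicate 3) to 0.0847, with -0.0317 without wild type replicate 3, and Gsta4, Gstm1, Gstm2, Gstm3, Gstk1, Taldo1 and Osgin1 changed sign too, as did Gstt2, Gclm, Tkt and Osgin1 in those labelled LD. A pseudocount of 5, a mean of at least 50, TMM rescaling and edgeR changed no call of these 8 members. Why counts moved was not tested.

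Replicate numbers did not pair libraries: the correlation of deviations between same-numbered libraries was 0.119, -0.030 and -0.018 in the first table and 0.048, -0.043 and 0.132 in the second. With the replicate number as a block, 822 genes were called in the first comparison, with 2 members higher (G6pdx and Gstp2) and 2 lower (Gsta2 and Gstt3), while Gstm4 had an adjusted p of 0.0551 (limma); in the second, 793 genes were called, with 2 members higher and 5 lower, Srxn1 added.

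In nuclei, 24 pairs of member and group differed by at least 2-fold, 7 with the level floor at the 75th percentile, 93 with no floor and 21 with the pseudocount at the 25th percentile. Depth of the nuclei is unknown, and 3 libraries per group limit the precision in bulk.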

Other observations

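Beyond the members, values of 2 genes of the wider pathway stood out and were chosen after they were seen. Hmox1, the heme oxygenase that NRF2 and its competitor BACH1 control, had 1331, 2348 and 3989 normalized counts in the libraries labelled KO, against 362, 915 and 626 in those labelled wild type. The groups did not overlap, and the log2 fold change was 1.97 ± 0.44 (SE, limma adjusted p = 0.0555). It did not pass in limma and was called by edgeR and DESeq2. Macrophages are rich in this enzyme, and the part of the macrophage markers given above, which moved the same way, was not tested. In the libraries labelled LD against PBS, Hmox1 had a log2 fold change of -0.12 ± 0.12 with overlapping groups.

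Gstp3, another pi-class gene, split the libraries of a group in both tables. It had 14271, 1159 and 12764 normalized counts in the libraries labelled LD, against 1191, 1144 and 1148 in those labelled PBS, so that LD replicate 2 lay among the PBS libraries. It had 19325, 14603 and 491 normalized counts in the libraries labelled KO, against 17881, 35748 and 35085 in those labelled wild type, where KO replicate 3 stood far below the rest. Neither difference passed in limma (adjusted p = 0.136 for LD over PBS and 0.356 for KO over wild type), while edgeR and DESeq2 called the first.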
